A study of Mus musculus with 3 samples.

Results

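The genes of the translation initiation factors (eIF) and elongation factors (eEF) were examined in iCLIP maps of Tra2β from mouse testis. They were chosen by name alone, as the protein-coding genes of GENCODE vM39 whose symbol begins with Eif1 to Eif6 or with Eef1 or Eef2, which gave 87 of 21770 protein-coding genes. The material was minced testes of adult wild type mice, labelled as a mixed cell type, and the immunoprecipitation used a polyclonal anti-Tra2b antibody. There were 3 libraries of 1 group, which the study describes as biological replicates, and no second group. In iCLIP, ultraviolet light joins a protein to the RNA it touches, and the end of the cDNA marks the joined nucleotide. A crosslink here is 1 unique cDNA at 1 nucleotide.

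Tra2β is a nuclear splicing regulator that binds purine-rich RNA, above all around the trinucleotide GAA, and activates exons from within. The factor genes encode the machinery that starts and extends protein synthesis. The initiation factor eIF2 brings the initiator tRNA to the small ribosomal subunit, the large eIF3 complex serves as a scaffold, and the eIF4 proteins recognise the cap of the mRNA and unwind its leader. The factors eIF5 and eIF5B release eIF2 and join the large subunit. In elongation, eEF1 delivers the charged tRNA and eEF2 moves the ribosome along. Male germ cells depend strongly on control at this step, since late spermatids translate mRNAs that were made and stored earlier.

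The libraries held 348033, 619571 and 488719 crosslinks in replicates 1, 2 and 3. Replicate 2 stood apart. The exons of all coding genes other than the factor genes held 43.0%, 26.8% and 55.5% of the exonic and intronic crosslinks of those genes in replicates 1, 2 and 3. Exonic crosslinks were found in 12 of 12 listed germ cell markers (summed 816, 267 and 1511), mostly in genes of meiotic and later cells. The early markers were low, with 0, 1 and 0 in Zbtb16 and 3, 5 and 4 in Stra8. The 3 listed Sertoli cell markers summed to 5, 10 and 6 with Amh at 0, the 3 Leydig markers to 23, 16 and 28, the 2 myoid markers to 4, 0 and 14, and the 3 blood markers to 0 in every library. There was no input or IgG library, so the amount of an RNA, the number of cells that hold it and its binding by Tra2β cannot be told apart when genes are compared. Comparisons of exons within a transcript do not rest on the gene's level, but still rest on the canonical transcript being the one made.

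Which exon sequences carried the crosslinks is shown first, with coding exons far above and far below the rest of their transcript. Exons were numbered along the canonical transcript, sequences were read from GRCm39 in the sense direction, and capitals mark every GAA. The first 5 were called as above the rest of their transcript in the test described further on and the last, from Eif4g1, as below it.
Eif3c exon 5 (chr7:126162799-126162924, minus strand, 126 nt, 8 GAA): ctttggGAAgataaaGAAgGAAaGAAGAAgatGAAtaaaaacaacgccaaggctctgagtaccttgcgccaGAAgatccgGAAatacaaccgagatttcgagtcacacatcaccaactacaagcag
Eif5 exon 4 (chr12:111506235-111506316, plus strand, 82 nt, 2 GAA): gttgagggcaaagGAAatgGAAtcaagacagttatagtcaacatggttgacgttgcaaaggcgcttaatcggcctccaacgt
Eif5b exon 5 (chr1:38060675-38060892, plus strand, 218 nt, 18 GAA): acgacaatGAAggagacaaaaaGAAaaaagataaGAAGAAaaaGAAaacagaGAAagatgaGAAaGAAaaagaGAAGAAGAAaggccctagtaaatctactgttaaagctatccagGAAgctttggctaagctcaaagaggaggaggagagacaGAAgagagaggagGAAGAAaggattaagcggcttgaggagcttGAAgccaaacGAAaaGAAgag
Eif4g1 exon 16 (chr16:20502168-20502404, plus strand, 237 nt, 11 GAA): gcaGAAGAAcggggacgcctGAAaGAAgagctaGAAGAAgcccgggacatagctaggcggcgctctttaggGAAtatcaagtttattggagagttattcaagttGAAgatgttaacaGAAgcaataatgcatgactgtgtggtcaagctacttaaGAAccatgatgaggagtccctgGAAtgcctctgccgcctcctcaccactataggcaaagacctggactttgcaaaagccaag
Eif3g exon 5 (chr9:20809003-20809062, minus strand, 60 nt, 3 GAA): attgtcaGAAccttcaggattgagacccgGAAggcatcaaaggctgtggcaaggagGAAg
Eif4g1 exon 3 (chr16:20494094-20494270, plus strand, 177 nt, 0 GAA): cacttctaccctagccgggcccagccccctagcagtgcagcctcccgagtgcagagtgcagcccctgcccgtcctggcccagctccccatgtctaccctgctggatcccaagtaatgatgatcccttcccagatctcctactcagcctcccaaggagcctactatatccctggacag
Eif5b exon 5 was 78.9% purine and Eif3c exon 5 was 63.5%, whereas Eif4g1 exon 3 was 39.0%. Eif5 exon 4 was called with 2.44 GAA per 100 nt, about the median of the internal coding exons of the factor genes not called.

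Crosslinks in the factor genes were concentrated on a few large initiation factors. The exons of the 87 genes held 943, 554 and 2143 crosslinks in replicates 1, 2 and 3, which was 0.974%, 0.672% and 1.12% of the exonic crosslinks of all coding genes. The 5 leading genes, Eif5b, Eif3a, Eif4g1, Eif4g3 and Eif3c, held 60.9% of the 3640 exonic crosslinks. There were 9 genes with at least 100 exonic crosslinks, 10 with 20 to 99, 46 with 1 to 19 and 22 with none. Exonic crosslinks in all 3 libraries were found in 40 genes.

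The subunit joining GTPase gene Eif5b led with 152, 85 and 357 exonic crosslinks and ranked 40 among all coding genes. Eif3a, the largest subunit of eIF3, held 127, 48 and 289 (rank 60), and Eif4g1, the scaffold that links cap and ribosome, held 113, 105 and 216 (rank 79). Replicate 2 was lowest in each of these genes. Eif4g3, a scaffold paralogue known to be needed for male meiosis, held 89, 86 and 200 (rank 110). Eif3c, another core subunit of eIF3, held 80, 29 and 242 (rank 122), and Eif5, the GTPase activator of eIF2, held 72, 16 and 174 (rank 207). The gene Eif4g2 encodes a scaffold that lacks the cap-binding partner site and held 50, 25 and 137. Next came the eIF3 subunit gene Eif3b with 26, 11 and 83, the exchange factor gene Eef1d with 37, 15 and 54, and the translocase gene Eef2 with 18, 10 and 33. Of the 100 coding genes with the most exonic crosslinks, 3 were factor genes.

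Per kb of canonical exon and per 1000000 exonic crosslinks of coding genes, a level that takes out transcript length and library size, none of the factor genes was among the first 100. Eif3a was highest at 219 ± 94.0 (SD, n = 3; rank 148), followed by Eif3c at 213 ± 119 (rank 158), Eif5b at 189 ± 53.5 (rank 182), Eif4g1 at 186 ± 11.9 (rank 187) and Eif4g3 at 163 ± 11.7 (rank 236). Eif3a, Eif3c, Eif5b and Eif4g1 overlapped over the libraries, as did Eif3a, Eif3c, Eif5b and Eif4g3. Eif5 at 118 ± 71.7, Eif3g at 108 ± 91.6 and Eif3b at 93.6 ± 50.4 also overlapped. Eef1d at 66.6 ± 23.6 and Eif4g2 at 63.9 ± 25.7 were the other genes of the 10 highest. Eif4g1, at 176 to 199, and Eif4g3, at 150 to 170, varied little and did not overlap, while Eif3g ranged from 10.9 in replicate 2 to 193 in replicate 3, on 13, 1 and 41 crosslinks. The median level over all 87 factor genes was 5.64, against 1.84 over all other coding genes, 4.95 over 86 cytoplasmic ribosomal protein genes and 8.06 over 51 proteasome subunit genes.

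**Figure D1:**
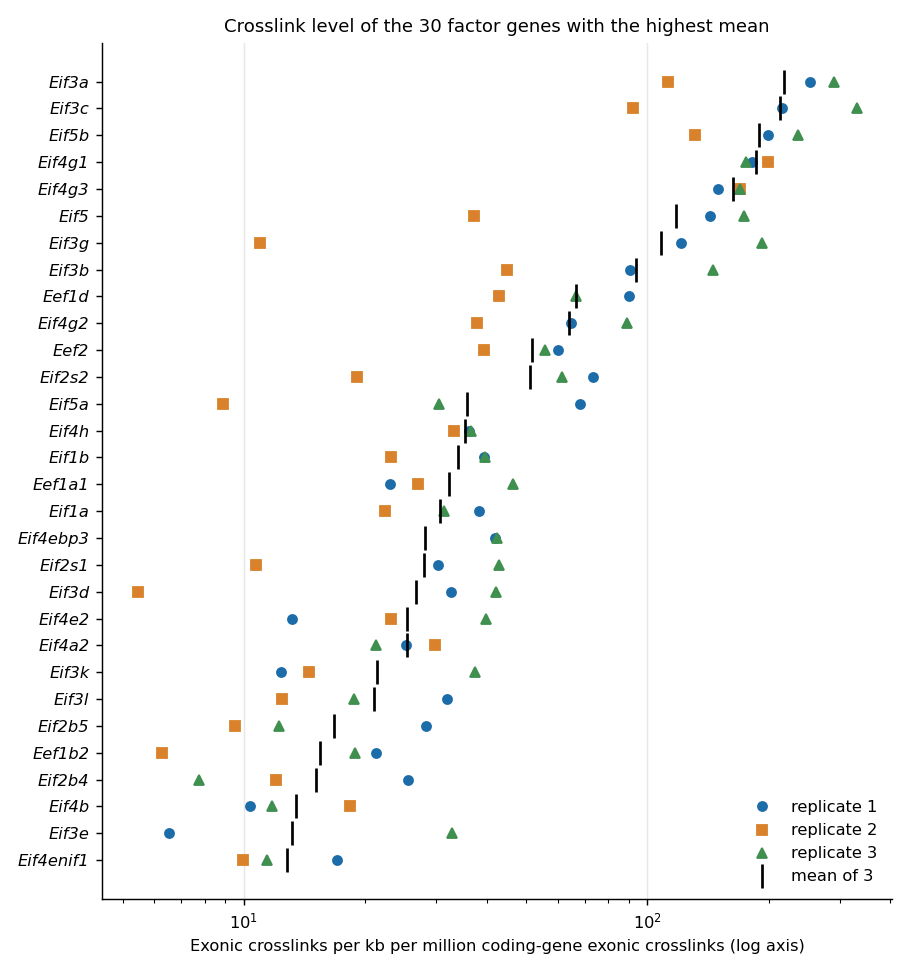
Exonic crosslinks per kb of canonical exon per 1000000 exonic crosslinks of coding genes (log axis) for the 30 factor genes with the highest mean. Points are the 3 libraries, bars their mean, and libraries at 0 (replicate 2 of Eif4ebp3 and Eif3e) have no point. Eif3a, Eif3c, Eif5b, Eif4g1 and Eif4g3 lie above 90 in every library, and replicate 2 is the lowest library of most of the leading genes.

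By role, the 11 genes for cap binding and unwinding held 31.2% of the factor genes' exonic crosslinks and the 14 eIF3 genes 29.7%. The 4 genes for subunit joining and hypusine factors held 17.3%, nearly all in Eif5b, and the 12 genes for start site selection and the eIF2 ternary complex held 11.8%. The eEF1 group held 4.04% and eEF2 with its kinase 1.90%. The 4 kinases that phosphorylate eIF2 under stress held 6, 13 and 17 exonic crosslinks together, and the 5 subunit genes of its exchange factor eIF2B held 15, 8 and 12. The 5 factor methyltransferase genes stood out by library, with 4, 16 and 7 exonic crosslinks, of which Eef2kmt had 2, 9 and 1. By raw count, replicate 2 was also the high library for the kinase genes Eef2k (1, 6 and 1) and Eif2ak4 (0, 7 and 1). The 5 leading genes had their lowest raw count in replicate 2. Scaled for library size, replicate 2 stayed lowest in Eif5b, Eif3a and Eif3c. It was not lowest in Eif4g1 (182, 199 and 176) or Eif4g3 (150, 170 and 170).

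Paralogues differed widely. Of the eIF4A helicase genes, Eif4a2 held 6, 6 and 10 exonic crosslinks, Eif4a1 held 0, 1 and 1, and Eif4a3, which belongs to the exon junction complex, held 1, 0 and 0. Eif5a, the hypusine-bearing factor, held 9, 1 and 8 and its paralogue Eif5a2 held 5, 6 and 6. The Y-linked subunit gene Eif2s3y, known for its role in spermatogonia, held 1, 3 and 5 exonic crosslinks, and the X-linked Eif2s3x held 0 in all 3 libraries, which allows up to 3 by counting error. Eif3j1 held 3, 3 and 4 and the intronless Eif3j2 held 2, 0 and 5. Eef1a1, which encodes the main tRNA carrier, held 4, 4 and 16, and Eef1a2, the form of muscle and neurons, held none. How reads that map to several places were treated is not given in the sources used here, so counts of genes with near-identical copies (Eef1a1, Eif1, Eif2s3x, Eif3j1, Eif3j2 and the Eif1ad group) are uncertain.

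In all, 19 of 87 genes had no crosslink in an exon or intron. Of the 16 numbered copies Eif1ad2 to Eif1ad19, 14 had none. The other 5 were Eef1a2, Eef1akmt3, Eif4a3l1, Eif4a3l2 and Eif4e1b, the last of which encodes a cap-binding protein of oocytes. All 9 exonic crosslinks of Eif4ebp3 lay under an exon of another gene on the same strand, so none can be given to it alone.

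The next question was whether crosslinks lay in exons or introns. The exons of the factor genes held 73.6% of their crosslinks in replicate 1 (95% Clopper-Pearson interval 71.1 to 76.0, counting error only), 51.9% in replicate 2 (48.8 to 54.9) and 81.8% in replicate 3 (80.3 to 83.3), or 69.1% ± 15.5 (SD, n = 3). All other coding genes had 41.7% ± 14.4. The share was higher for the factor genes in 3 of 3 libraries, with intervals that did not overlap within a library, and both shares were lowest in replicate 2. Ribosomal protein genes, at 75.0%, 46.2% and 76.6%, had intervals that overlapped those of the factor genes in every library, and proteasome genes were at 55.8%, 30.7% and 69.9%. The pooled share is set by the few leading genes. The median over the 35 factor genes with at least 20 crosslinks was 60.0%, against 36.8% over 6970 other coding genes.

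Within exons, the coding sequence held 87.8% ± 1.02 of the factor genes' crosslinks (SD, n = 3) on 42.2% of their exonic bases. The 3′ UTR held 8.39% ± 0.548 on 48.3% of the bases, and the 5′ UTR 3.77% ± 0.499 on 9.53%. In all other coding genes the coding sequence held 78.4% ± 2.86 on 47.1% of the bases and the 3′ UTR 16.99% ± 2.76 on 44.6%. The factor genes' share in the coding sequence was the higher one in 3 of 3 libraries.

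Gene by gene, an edgeR quasi-likelihood test compared the split between exon and intron with that of all coding genes of the same library. Benjamini-Hochberg adjustment was over all 6907 coding genes with an intron and at least 20 crosslinks. Of 35 factor genes tested, 14 had a higher exon share (17.8% of all genes tested were higher) and 1 had a lower one (25.3% of all genes tested were lower). The 14 were above the coding genes in 3 of 3 libraries. The median log2 difference was 0.73 over the 35 factor genes and -0.35 over all genes tested. Introns of the 14 genes summed to a median of 12720 nt, against 20340 nt in the factor genes not called, 13700 nt in all genes called higher and 39090 nt in all genes tested, so long introns went with a lower exon share in general. The part of intron length in these calls was not tested.

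The initiation factors led. For Eif5b, 15, 11 and 36 crosslinks lay in introns of 49773 nt against 152, 85 and 357 in exons. Its log2 exon to intron ratio relative to coding genes was 3.70, 4.34 and 2.96 in replicates 1, 2 and 3 (adjusted p = 2.24e-07, edgeR). Eif3a had 9, 14 and 19 intronic crosslinks and log2 ratios of 4.14, 3.19 and 3.56 (adjusted p = 2.63e-07, edgeR), and Eif4g1 had 11, 33 and 25 and log2 ratios of 3.70, 3.10 and 2.76 (adjusted p = 7.56e-07, edgeR). Of the eIF3 genes 9 were tested and 5 called higher (Eif3a, Eif3b, Eif3c, Eif3d and Eif3g). Of the start site and ternary complex genes, 3 of 5 were (Eif5, Eif2s1 and Eif2s2), the latter pair encoding eIF2 subunits. Both eEF1 genes tested, Eef1a1 and Eef1d, and the 1 gene of the eEF2 group tested, Eef2, were also called. The highest shares over the 3 libraries were those of Eef1a1 (96.0%), Eef2 (95.3%), Eif3g (94.8%), Eif5 (93.9%) and Eif3c (91.9%). The first 3 of these had very few intronic crosslinks, so the size of the difference is loosely known. Eef1a1, with 24 exonic and 1 intronic crosslinks, had 32.6 times the ratio of coding genes (95% Clopper-Pearson interval 5.32 to 1343). Eef2, with 61 and 3, had 27.7 times that ratio (9.03 to 138), although 2 of its 3 intronic crosslinks lay on bases of another gene's exon, and without such bases its fitted log2 difference was 5.79 in place of 4.55. For Eif3g, with 55 and 3, the ratio was 24.9 times that of coding genes (8.10 to 125), and for Eif3d, with 26 and 3, it was 11.8 times (3.61 to 60.9).

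Eif4e, the cap-binding protein gene, was the 1 gene called lower. It held 4, 6 and 12 exonic and 31, 40 and 43 intronic crosslinks, and its log2 ratio was -2.41, -1.20 and -2.13 (adjusted p = 0.00214, edgeR). Of the intronic crosslinks, 24, 30 and 25 lay in intron 2, which is 19006 nt long. Without replicate 1 it was not called. The methyltransferase genes Eef1akmt1 (0, 2 and 3 exonic against 6, 11 and 3 intronic crosslinks) and Eef1akmt2 (2, 4 and 3 against 8, 10 and 9), the loosely bound eIF3 subunit gene Eif3j1 (25.6%) and the kinase gene Eif2ak4 (27.6%) had the next lowest shares, and none of them was called in the fit of all 3 libraries. Eif2ak4 was called lower without replicate 2, which held 7 of its 8 exonic crosslinks. Among the cap-complex scaffolds, Eif4g3 had 102, 118 and 114 intronic crosslinks in 206999 nt of introns and was not called (adjusted p = 0.165, edgeR), although its level in exons was close to that of Eif4g1.

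**Figure D2:**
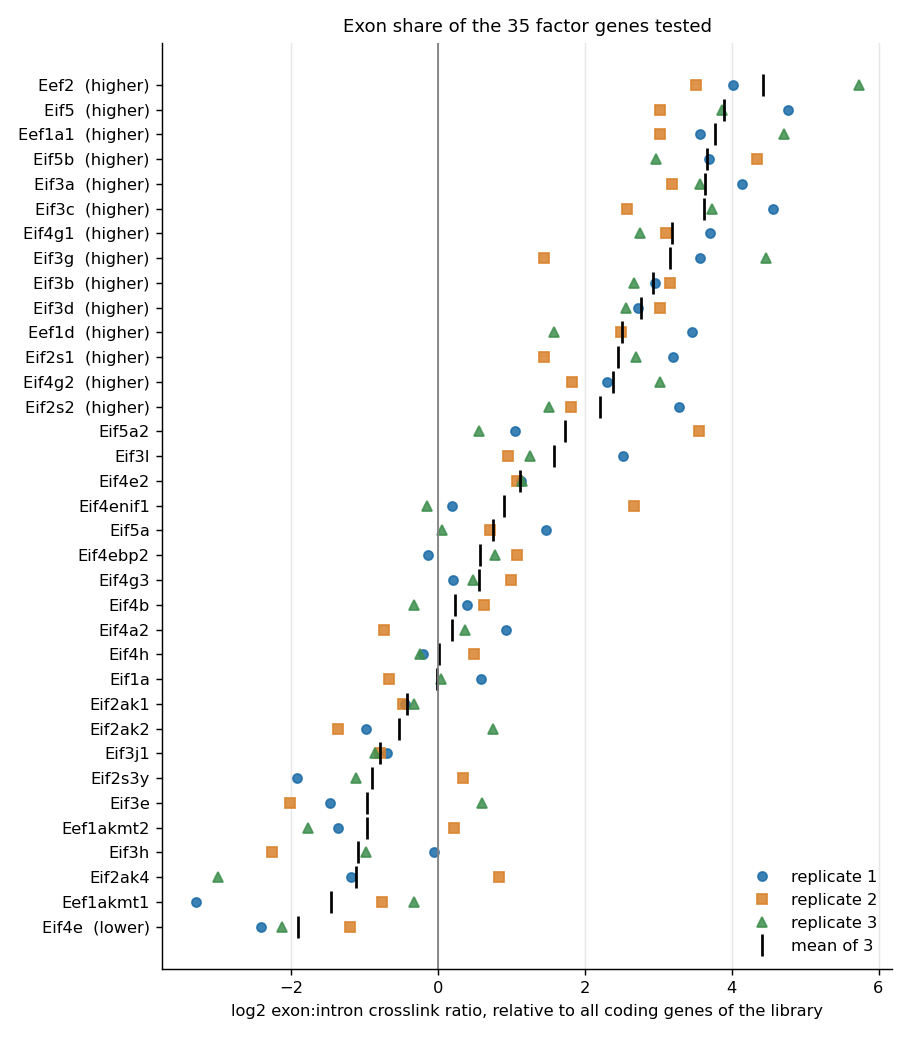
log2 of the exon to intron crosslink ratio of a gene over that of all coding genes in the same library, with 0.5 added to each count, for the 35 factor genes with at least 20 crosslinks. Points are the 3 libraries and bars their mean, and the words higher and lower mark the edgeR calls. All 14 genes called higher lie above 0 in every library, and Eif4e lies below 0 in every library.

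There were 27 other genes of the pathway (poly(A)-binding proteins, release factors, ribosome recycling and related genes), of which 14 could be tested. Of these, 3 were higher (17.8% of all genes tested were higher) and 2 lower (25.3% of all genes tested were lower). With 14 genes, these counts do not set the list apart from coding genes in general. Higher were Pabpc1, the main poly(A)-binding protein, with 31, 22 and 86 exonic against 5, 8 and 12 intronic crosslinks, the ribosome-associated ATPase gene Abcf1 (30, 23 and 101 against 6, 7 and 16) and Larp1, a regulator of mRNAs for ribosomal proteins (39, 37 and 106 against 22, 28 and 44). Lower were Mknk1, a kinase of eIF4E, with 3, 1 and 4 against 13, 23 and 18, and Dph6, an enzyme of the diphthamide modification of eEF2, with 0, 3 and 3 against 11, 36 and 16. Pabpc6, a paralogue of Pabpc1, held 45, 20 and 107 exonic crosslinks. Its canonical transcript has no intron, so it could not be tested and its exon share has no meaning.

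Exons were then compared with the rest of their own transcript. The crosslinks of each exon were set against those of all other exons of the canonical transcript, per nt, in an edgeR quasi-likelihood fit over 37448 exons whose gene held 20 exonic crosslinks or more. Exons of 19 factor genes could be tested, 270 in all. Of these, 22 in 10 genes were above the rest (3.38% of all exons tested were above) and 15 in 11 genes were below (3.12% of all exons tested were below). The 15 were lower than the rest of the transcript in 3 of 3 libraries. Of the 22, all but Eif5 exon 4 and Eif2s2 exon 6, which had no crosslink in replicate 2, were higher in every library.

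All 22 exons above were internal and coding. Of the 15 below, 9 were last exons, 3 were first exons and 3 were internal, so untranslated sequence made up much of the lower side. When coding bases alone were compared with the other coding bases of the transcript, 3 factor gene exons were above (0.934% of all exons tested in this way) and 6 were below (0.44%). The 3 were Eif3c exon 5, Eif4g1 exon 16 and Eif5b exon 5, and the 6 were Eif3c exons 16 and 20, Eif4g1 exons 3 and 4, Eif4g3 exon 1 and Eif5 exon 6. The counts also rested on the number of libraries. Without replicate 1 there were 2 above (Eif3c exon 5 and Eif5 exon 7) and 4 below, without replicate 3 there were 3 above (Eif3c exon 5, Eif5 exon 11 and Eif5b exon 5) and 5 below, and without replicate 2 there were 26 and 16. The other exons described as above in what follows therefore lost the call without replicate 1 and also without replicate 3. An exact binomial test that had to pass in each library called 5 above (Eif3c exon 5, Eif5 exons 7 and 11 and Eif5b exons 4 and 5) and 5 below.

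Eif3c exon 5 had the lowest adjusted p of the exons above. It held 14, 7 and 41 crosslinks in 126 nt while the other exons held 66, 22 and 201, and the log2 fold per nt was 2.68, 3.29 and 2.60 (adjusted p = 1.54e-08, edgeR). It was above in every alternative tried. The upstream neighbour, exon 4, held 10, 2 and 35 in 190 nt (adjusted p = 0.0200) and exon 9 held 8, 7 and 23 in 160 nt (adjusted p = 0.00731, both edgeR).

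Eif5b had a stretch of exons above the rest. Exon 5 held 23, 11 and 33 crosslinks in 218 nt, with log2 folds of 2.67, 2.44 and 1.86 (adjusted p = 3.14e-07, edgeR), and exon 4, of 670 nt, held 35, 22 and 91 (adjusted p = 5.43e-06, edgeR). Exons 7, 9 and 10 were called as well, with 9, 5 and 18, then 9, 2 and 8, then 8, 13 and 34 crosslinks. Exons 4 to 10 together, a stretch chosen after its values were seen, held 94, 59 and 207 of the 152, 85 and 357 crosslinks, or 60.6% on 20.1% of the exonic bases. These 5 exons called were 69.4% to 78.9% purine.

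In Eif5, exons 4, 7 and 11 were above. Exon 4 held 8, 0 and 27 crosslinks in 82 nt against 64, 16 and 147 elsewhere, so it was high in replicates 1 and 3 and had no crosslink in replicate 2 (adjusted p = 2.18e-07, edgeR). The 21 nt window with the most crosslinks, bases 20 to 40 of the exon printed above, held 28 of its 35 crosslinks. Exon 11 held 13, 4 and 21 in 135 nt (adjusted p = 4.06e-07) and exon 7 held 9, 4 and 24 in 140 nt (adjusted p = 4.04e-06, both edgeR). Exons 7 and 11 were spread more evenly over the libraries. Of the 262 exonic crosslinks of Eif5, 26 lay on bases of another gene's exon on the same strand. The exons of Eif5 were not tested with such bases left out.

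In Eif4g1, exon 16 held 18, 9 and 28 crosslinks in 237 nt, with log2 folds of 2.33, 1.36 and 1.98 (adjusted p = 7.56e-05, edgeR), and exon 11 held 7, 5 and 16 in 134 nt (adjusted p = 0.00931, edgeR). The start of the transcript was almost bare. Exons 1 to 4, a stretch chosen after its values were seen, held 0, 1 and 0 of the 113, 105 and 216 crosslinks, although they make up 24.6% of the exonic bases. Exon 1, of 1211 nt, had none and was at least 33.7-fold lower per nt than the rest (3 crosslinks taken as the limit over all libraries). Exon 4, with none in 100 nt, was at least 2.29-fold lower, and exon 3, with 1 crosslink in 177 nt, was 12.3-fold lower (95% Clopper-Pearson interval 2.20 to 487). Of the 34 annotated coding transcripts of Eif4g1, 2 hold all of canonical exon 1 and 31 overlap it. Exons 3 and 4 were skipped in 4 and 1 of the 34 coding transcripts that span them.

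Eif3a had exons 13, 14 and 16 above, with 7, 6 and 11, then 6, 3 and 21, then 10, 5 and 17 crosslinks. Exons 13 to 17, again chosen after their values were seen, held 43, 20 and 78 of 127, 48 and 289 crosslinks, or 30.4% on 13.1% of the bases. Exon 16 was the last exon inside the threshold on the upper side (adjusted p = 0.0396) and exon 15, with 11, 1 and 16 crosslinks, lay just outside it (adjusted p = 0.0534, both edgeR). Just outside on the lower side was Eif4g1 exon 2, which had no crosslink (adjusted p = 0.0531, edgeR).

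Further exons above came from other genes. Eef1d exon 3 held 17, 11 and 32 of the gene's 37, 15 and 54 exonic crosslinks in 1130 nt, with a log2 fold of 1.23, 2.81 and 1.99 (adjusted p = 0.00122, edgeR). Of the annotated coding transcripts that span it, 9 of 30 skip this exon, which is coding throughout. It was poor in GAA, at 1.24 per 100 nt, and against the other coding bases its log2 fold was 0.01. Eif4g2 exons 17 (5, 2 and 23 crosslinks) and 21 (2, 3 and 8) were called, as were Eif2s2 exon 6 (4, 0 and 11), Eif3g exon 5 (4, 1 and 8 in 60 nt) and Eef1a1 exon 7 (2, 1 and 10). The genes of this paragraph lost all their calls above without replicate 1 and also without replicate 3.

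**Figure D3:**
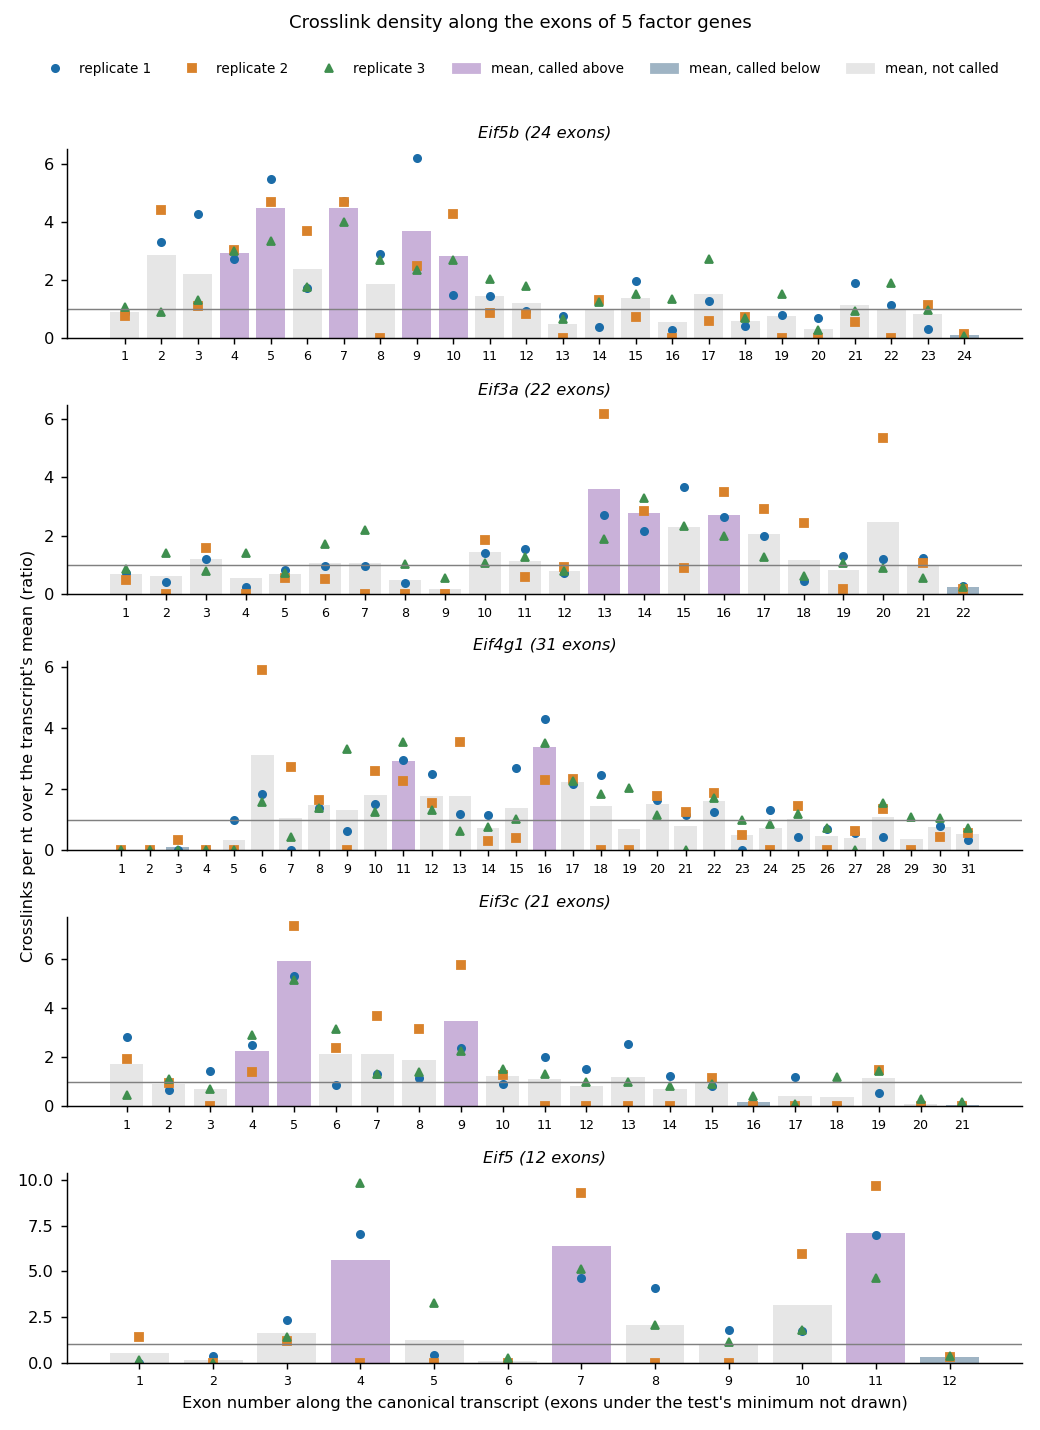
Crosslinks per nt of each exon over the mean of its transcript (ratio, 1 is the mean), by exon number, for 5 factor genes. Points are the 3 libraries and bars their mean, coloured by the edgeR call. Exons 4 to 10 of Eif5b, 13 to 17 of Eif3a and 5 of Eif3c rise above the mean, exons 1 to 4 of Eif4g1 lie near 0, and the last exons of Eif5b, Eif3a, Eif3c and Eif5 lie below the mean.

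Last exons, which hold the 3′ UTR, were below the rest in Eif5b, Eif3c, Eif5, Eef1d, Eif4g2, Eif3a, Eif2s1, Eif2s2 and Eif4e. These were 9 of the 19 tested, or 47.4%, against 23.3% of all last exons tested. A call also depends on the number of crosslinks in the gene, and the part of this in the gap was not tested. Only the last exons of Eif5b, Eif3c and Eif5, genes of rank 40, 122 and 207 by exonic crosslinks, were called both without replicate 1 and without replicate 3. That of Eif4e, with 11 crosslinks against 11 elsewhere, kept its call in 1 of 8 alternatives. For Eif5b exon 24, of 3997 nt, the crosslinks were 6, 6 and 13 against 146, 79 and 344 elsewhere (log2 fold -4.54, -3.66 and -4.72, adjusted p = 1.09e-22, edgeR). Eif3c exon 21 held 1, 0 and 11 in 1061 nt and Eif5 exon 12 held 14, 3 and 41 in 3376 nt. The last exon of Eef1d held 0, 0 and 2 in 1387 nt, a 25.3-fold lower density (95% Clopper-Pearson interval 6.84 to 212). The first exons below were, besides that of Eif4g1, those of Eef1d (0 crosslinks in 888 nt, at least 9.38-fold lower) and Eif4g3 (3, 11 and 5 in 1123 nt). All of the exon is held by 8 of 34 coding transcripts of Eef1d, with 29 overlapping it, and by 1 of 10 of Eif4g3, with 8 overlapping it. Eif3c exon 16, an internal coding exon of 364 nt, held 1, 0 and 10.

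The exons above were mostly rich in purines, a property that the test did not use. Their median was 64.6% purine and 5.35 GAA per 100 nt, against 54.7% and 2.44 in the 200 internal coding exons not called. Eef1a1 exon 7 (47.7% purine), Eif4g2 exon 21 (52.5%), Eef1d exon 3 (52.7%) and Eif4g1 exon 11 (54.5%) lay under the purine median of the exons not called. The 3 internal exons below had a median of 47.0% purine and 0 GAA per 100 nt, but the 63 such exons of all genes were at 55.5% and 2.65, against 53.9% and 2.66 in those not called. Over all genes, internal coding exons above had 62.4% purine and 5.08 GAA per 100 nt, close to those of the factor genes. Over the 225 internal coding exons of the factor genes, Spearman's rho between GAA density and the log2 fold was 0.31. Over 29269 such exons of all genes it was 0.25. These are descriptions across exons, which share libraries and genes. Exons with many GAA were not all high, and Eif5 exon 4, Eef1a1 exon 7 and Eef1d exon 3 were called with 2.44, 2.13 and 1.24 GAA per 100 nt. Of the 22 exons above, 7 were skipped in at least 1 annotated coding transcript, against 57 of the 200 not called.

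**Figure D4:**
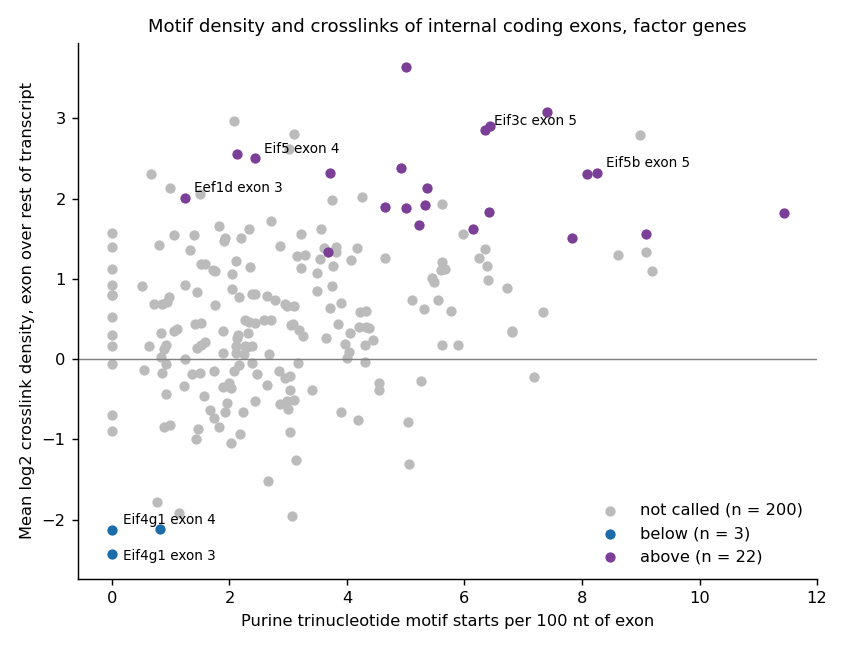
Mean log2 crosslink density over the rest of the transcript (0.5 crosslinks added) against the density of the GAA motif, for the 225 internal coding exons of the factor genes. Colours give the edgeR call. The 22 exons above spread from 1.24 to 11.4 motifs per 100 nt, and the 3 below lie under 1.

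Within exons, a GAA within 20 nt was only slightly more frequent at crosslinks than elsewhere in the same exons. A GAA lay within 20 nt of 70.9%, 75.3% and 67.6% of exonic crosslinks of the factor genes in replicates 1, 2 and 3, against 66.8%, 67.1% and 66.2% of all positions of the same exons weighted by their crosslinks. The ratio was 1.07 ± 0.0503 (SD, n = 3) and above 1 in 3 of 3 libraries. Other coding genes had 1.08 ± 0.0539. The difference between these ratios was smaller than the spread over libraries, and its direction varied by library. Within 10 nt, the ratio of the factor genes was 1.02, 1.14 and 1.02, against 1.08, 1.19 and 1.06 in other coding genes. In that narrower window it was lower for the factor genes in 3 of 3 libraries. The share at all positions was already 66.2% or more, which leaves the ratio of this wide window little room to rise. Replicate 2 differed in where the motif lay. A GAA began at the crosslinked nucleotide itself at 5.10%, 3.09% and 6.82% of crosslinks, against 3.65%, 3.79% and 3.58% of all positions. It was thus more frequent there in replicates 1 and 3 and not in replicate 2. Other coding genes had 4.53%, 3.06% and 5.51%, against 3.00%, 3.14% and 3.06%. In the factor genes, a GAA that began 1 nt upstream was rarer, at 1.17%, 2.19% and 1.69%. Farther out in the factor genes, a GAA began 1 to 25 nt downstream of the crosslink at 5.66% of crosslinks per nt in replicate 2. The value for all positions of those exons was 3.76%. In replicates 1 and 3 the downstream values were 4.16% and 3.70%, against 3.59% and 3.54%. Upstream, the 3 libraries were at 4.09%, 3.98% and 4.08%, against 3.67%, 3.79% and 3.58%, so that in replicate 3 the upstream excess was the larger one. Other coding genes had the same downstream excess in replicate 2, with 4.46% against 3.11%. Of 3227 exonic nucleotides crosslinked in the factor genes, 189 were crosslinked in at least 2 libraries and 6 in all 3, so single nucleotides carried little depth.

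Alternative exons that lie in canonical introns were tested against the rest of their host intron outside annotated exons of the gene. There were 115 in 45 factor genes. Of these, 17 had a crosslink and 19 had enough crosslinks in exon and intron together to be tested. None was called (1.53% of all 8880 tested were above) by edgeR, 2 had an unadjusted p under 0.05 and DESeq2 called 2. The lowest adjusted p was that of a 261 nt exon in intron 14 of Eif4g2 (chromosome 7, 110675156 to 110675416, minus strand), annotated in a transcript with no defined coding sequence. It held 8, 9 and 11 crosslinks, while 1, 3 and 0 lay in the remaining 306 nt of the intron (adjusted p = 0.0740 in edgeR and 0.0110 in DESeq2). The annotated snoRNA gene Gm23262 lies across this exon, and 9, 9 and 11 crosslinks lay within it, so crosslinks of the exon and of the snoRNA cannot be told apart. An alternative exon of 446 nt in intron 1 of Eif4e, found in coding transcripts, held 4, 3 and 7 crosslinks. The 130 nt of that intron outside every annotated exon of the gene held none (adjusted p = 0.924, edgeR). The whole intron, of 973 nt, held 4, 5 and 12, so some crosslinks lay in its other annotated exonic bases. The second call of DESeq2 was a 33 nt exon of Eif4g3 with 1 crosslink.

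Exons found only in nonsense-mediated decay transcripts, alone or with other non-coding ones, numbered 31 in the factor genes and spanned 4630 nt. These so-called poison exons held 2 crosslinks in all over 3 libraries, in 2 exons. At this depth, crosslinking of the other 29 was not detectable. Their host introns also held few crosslinks, at most 5, 8 and 9 beside the exon in intron 1 of Eif4h. The share over such exons of all coding genes is not given here, so the low count is not read as a trait of the factor genes.

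Small RNA genes inside the factor genes took part of the intronic crosslinks. There were 29 in 17 genes, 14 had a crosslink, and summed over genes (some overlap each other) they held 15, 49 and 23. The introns of Eif4a2 hold several snoRNA genes, and 27 of its 39 intronic crosslinks lay on bases that another gene's exon covers. Snora81 in Eif4a2 had 1, 8 and 1. In Eif3c, the snRNA gene Gm24596 held 1, 6 and 6. Replicate 2 was the high library for those in Eif4a2. With such bases left out, the same number of factor genes, 14, had a higher exon share. The fitted log2 difference then moved from 2.42 to 3.94 for Eif4g2 and from 3.60 to 4.33 for Eif3c.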

How the data were processed

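Crosslinks were mapped by Tra2β iCLIP in 3 libraries of adult wild type mouse testis. The authors deposited, for each crosslinked nucleotide and strand, a raw count of unique cDNAs, not normalised and not pooled. The study's methods name the iMAPS pipeline, and the submitters' processing notes name Trim Galore 0.6.7, Bowtie 1.3.1, STAR 2.7.9a, UMI-tools 1.1.2 and build mm39. Sequence names and positions were checked against GRCm39. The treatment of multimapping reads is not given in the sources used here. Since nucleotides without a cDNA are not listed and duplicates were removed by random barcode, intervals and limits cover counting error only.

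Crosslinks were counted by strand in exons and introns of the Ensembl canonical transcript (GENCODE vM39). The exon share was tested with edgeR 4.0.16 (R 4.3.3, quasi-likelihood, Benjamini-Hochberg, threshold 0.05). Exon counts were set against intron counts with library totals as offsets, in genes with an intron and at least 20 crosslinks. Exons were tested against the rest of the transcript with lengths as offsets, where at least 20 exonic crosslinks in the gene and at least 1 expected in the exon were present. Alternative exons were tested against the part of their intron outside annotated exons of the gene, where both together held at least 10. p-values measure the spread over 3 libraries. Values per library have 0.5 added to each count. A count of 0 was taken to allow 3. The tests were checked on simulated data. Alternatives were DESeq2 1.42.0, an exact binomial test in each library, TMM factors, other minimums, coding bases only, positions counted once, bases shared with other genes left out, other motif windows, and leaving out each library.

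Named genes were those with the 10 most exonic crosslinks, the 10 highest levels, the 5 highest and 5 lowest exon shares, those without crosslinks and paralogue sets, and named exons were those called and those next to the threshold. The genes and lists were chosen with earlier results of these data known.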

Additional observations from a re-analysis of the deposited data

Results flagged for a closer look

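Crosslinks on the strand opposite to the factor genes were not part of any comparison. They numbered 67, 164 and 88 in replicates 1, 2 and 3, above the limit of 3 that a count of 0 allows in a library, and made up 4.97%, 13.3% and 3.25% of the crosslinks on both strands. Eif4g3 held the most, with 18, 38 and 23, followed by Eif2ak1 with 7, 9 and 14 and Eif5b with 3, 17 and 7. Genes annotated on the opposite strand were not separated out, and the source of these crosslinks was not tested.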

How the results depend on the processing

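Of the 14 factor genes with a higher exon share, Eif5b, Eif3a, Eif4g1, Eif3c, Eif5, Eif4g2, Eif3b, Eef1d and Eef2 were called in every alternative tried. The number was 10 to 14 when a library was left out, 9 with the binomial test in each library and 11 to 17 otherwise. The count of lower genes was 0 with the binomial test and 0 to 2 when a library was left out. For exons above the rest of their transcript, the count was 5 with the binomial test, 3 with coding bases only and 2 to 26 when a library was left out. For exons below, it was 5, 6 and 4 to 16 in the same order. With coding bases only, the fold of Eef1d exon 10 turned to 0.0285 and that of Eif4g2 exon 22 to 1.54 on the log2 scale, neither called. The other settings kept the exon counts between 20 and 28 above and 14 and 15 below. Alternative exons called above numbered 2 with DESeq2 and 0 otherwise. The exon share of the factor genes was 60.0% to 71.7% in the alternatives and 62.7% to 77.7% when a library was left out, and the GAA ratio was 1.02 to 1.07 and 1.04 to 1.09. The replicates form 1 group. The fits compared 2 counts of the same library, with library as a term, so they were paired within libraries. There is no second group to compare with. Depth limits the 46 genes with 1 to 19 exonic crosslinks, for which no exon was tested.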
